A study of Danio rerio with 3 samples.

Results

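The spliceosome component genes are the genes of the zebrafish array whose name in the array files begins with sf3a, sf3b, snrp, lsm followed by a digit, prpf, srsf, sfrs (the older name of srsf) or u2af. The rule took 53 of 27355 gene names, through 123 of 43603 probes. By name they divide into SF3A with 3 genes, SF3B with 5, the Sm ring with 7, other SNRP genes with 3, LSM1 to LSM8 with 4, other LSM genes with 3, PRPF with 10, SR protein genes with 15 and U2AF with 3. All 53 had a vehicle signal above the negative control spots at every stage, so no member was lost to a filter in the vehicle time course. In 19 of them the current symbol differs from the name on the array, and the current symbol is used here.

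The spliceosome removes introns from newly made messenger RNA. Small nuclear RNAs packed with proteins, the U1, U2, U4, U5 and U6 particles, recognise the ends and the branch point of the intron, and a rearranged core of them carries out the reaction. In the early fish embryo the transcripts present at first were loaded into the egg by the mother, and they are replaced after the embryo's own genome is switched on.

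Gene expression was measured in whole wild-type zebrafish embryos, from fish bought in a pet shop, at 5, 12 and 24 hours post fertilisation (hpf). Ovulated oocytes had spent the time from 0 to 2 hpf in fish water with the steroid cortisol at 5 mg/L (13.8 µM) or with its vehicle, ethanol at 2 ml in 1 L, and the embryos were then kept at 28.5 °C. Vehicle RNA was labelled green (Cy3) and cortisol RNA red (Cy5) on 2-colour oligonucleotide arrays, with no dye swap, from 200 ng of total RNA, and both groups share the genotype, the water and the temperature. The design had 4 replicates for 5 hpf, 3 for 12 hpf and 1 for 24 hpf, per the labels, but each stage has 1 set of values, so no spread between embryo batches, no test and no p-value can be given. Differences are therefore described by size, beside the same measure over all genes. Where a gene had several probes, which are different oligonucleotides against the same gene name, the spread between them is the only error available. Its pooled SD over the members was 0.21, 0.38 and 0.39 on the log2 scale for the cortisol ratio at 5, 12 and 24 hpf, and 0.80, 0.36 and 0.95 for the vehicle change from 5 to 12, 12 to 24 and 5 to 24 hpf. Between 5 and 24 hpf the vehicle signal was lower in 18 of 18 early embryonic marker genes and higher in 16 of 16 markers of differentiated tissue. In whole embryos, fewer cells of a type and less RNA per cell cannot be told apart.

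In vehicle-treated embryos most spliceosome genes had their highest signal early and their lowest at 24 hpf. The highest of the 3 stages was 5 hpf in 32 members (60.4%, against 44.8% of all genes), 12 hpf in 18 (34%, against 28.2%) and 24 hpf in 3 (5.66%, against 27.1%). The lowest was 24 hpf in 42 members, or 79.2%, against 41.3% of the 16547 genes measured at all stages. The median change of the members from 5 to 24 hpf was -0.74 on the log2 scale, with 43 members lower and 10 higher, and that of all genes was -0.07. At least a 2-fold lower signal was found in 22 of 53 members (41.5%), where 19.6% of all genes had one. A signal at least 2-fold higher was found in 4 members (7.55%), against 17.0% of all genes.

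Taken by interval, the courses were as follows. From 5 to 12 hpf the members were divided, with 21 higher, 32 lower and a median of -0.28 against -0.03 for all genes. In this interval 6 members were at least 2-fold higher, where 14.0% of all genes were, and 9 at least 2-fold lower, where 14.9% of all genes were. From 12 to 24 hpf, 49 of 53 members were lower, against 57.8% of all genes, and the median was -0.56 against -0.06. The steps were small here, since 4 members were at least 2-fold lower (3.56% of all genes were) and 0 at least 2-fold higher (6.07% of all genes were). That count of 4 was 10 when the arrays were scaled to their 75th percentile and 9 from the authors' deposited green signal. The percentile scaling placed the median of all genes at 0.30 and that of the members at -0.71. With it 35% of all genes and 92.5% of members were lower. Shares of all genes past 2-fold were not taken under either alternative. Among members with several probes, all probes were lower in 26 of 35 from 12 to 24 hpf and in 19 of 35 from 5 to 24 hpf. The same counts over all genes with several probes were not taken, so these cannot be set against the array. The value sets for 12 and 24 hpf carry the same slide number and the set for 5 hpf another. Stage and slide therefore cannot be told apart in the changes that start at 5 hpf. The sets for 5 and 12 hpf are not read as single arrays, so a slide number may not cover every array behind them. From 12 to 24 hpf stage and slide were therefore not separated either.

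**Figure D1:**
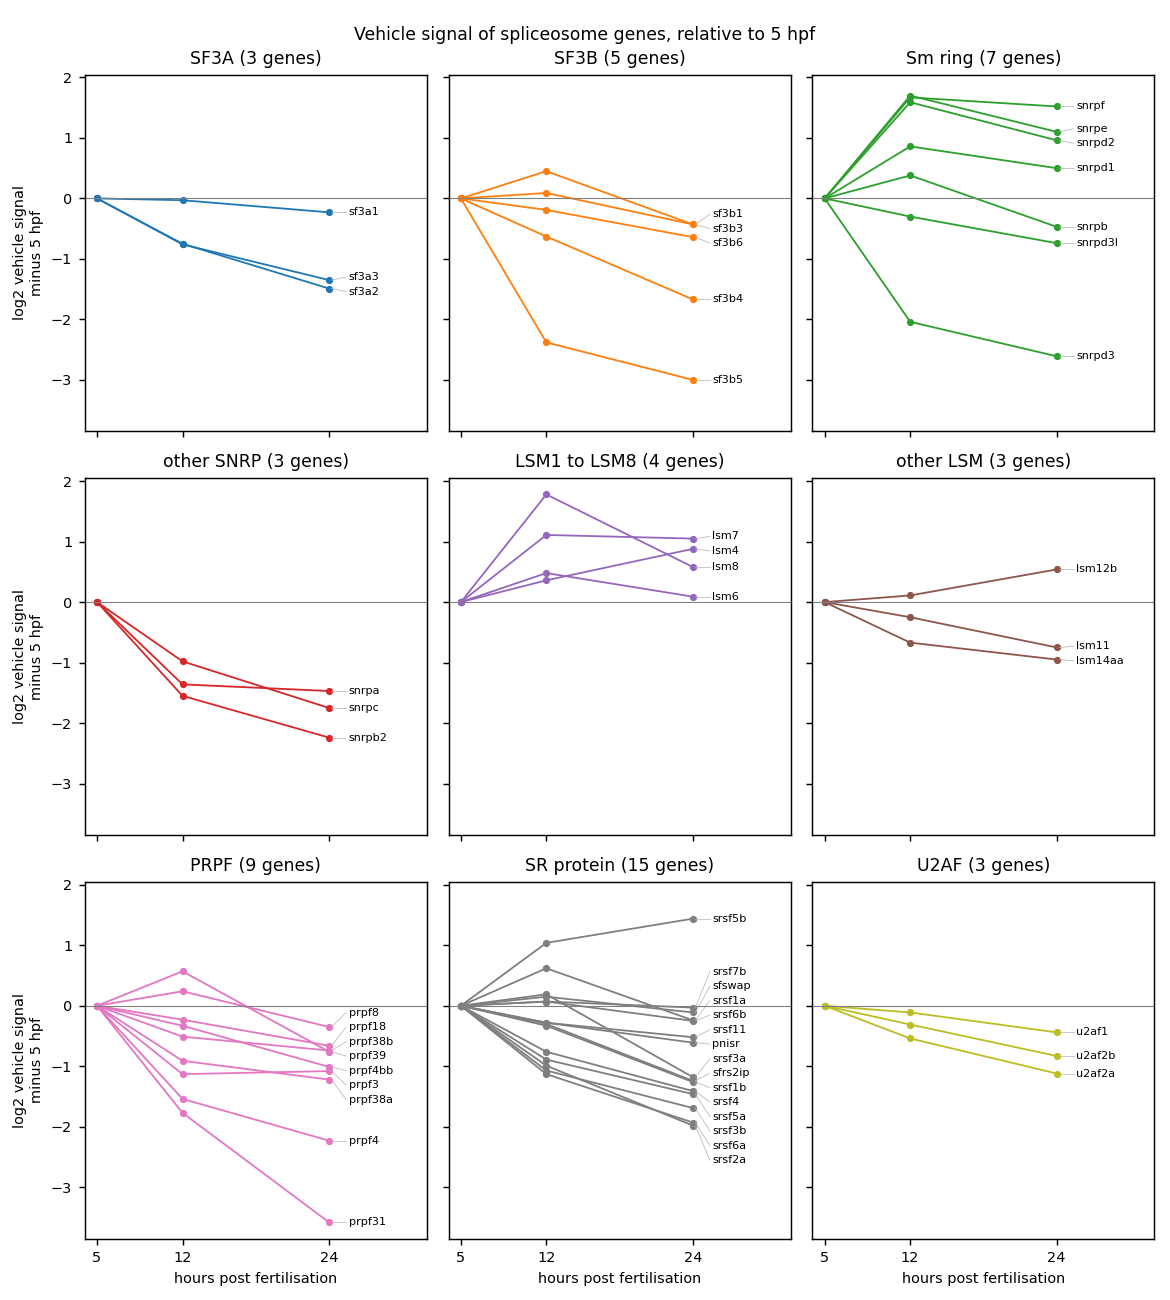
Log2 vehicle (green) signal of each member minus its value at 5 hpf, against hours post fertilisation, in 9 panels by subfamily, with 1 line per gene for 52 of the 53 members, from the probes measured at all 3 stages. Most lines lie below 0 at 24 hpf, while all 4 LSM1 to LSM8 genes and 4 of 7 Sm ring genes lie above 0.

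The Sm ring genes departed from this course. Their proteins, B, D1, D2, D3, E, F and G, close into a ring around the small nuclear RNAs of the U1, U2, U4 and U5 particles. At 5, 12 and 24 hpf the vehicle signal of snrpf was 2519, 8048 and 7233 normalised intensity units, that of snrpe was 2484, 8099 and 5329, and that of snrpd2 was 1843, 5573 and 3603. All 3 were lowest at 5 hpf and highest at 12 hpf, with changes from 5 to 12 hpf of 1.68, 1.71 and 1.60 on the log2 scale, each from a single probe. The signal of snrpd1, from several probes that were all higher, was 7450, 13453 and 10485. By contrast snrpd3 was 17386, 4248 and 2866, or 6.06-fold lower at 24 than at 5 hpf, by 1 probe. The array holds a further gene named snrpd3l, whose signal was 9361, 7584 and 5597. The median of the 7 genes was 0.85 from 5 to 12 hpf, -0.57 from 12 to 24 hpf and 0.49 from 5 to 24 hpf. The course was therefore divided within the ring. From 5 to 12 hpf 5 of 7 genes were higher, where 52.9% of all genes were lower. The remaining higher gene, snrpb, was at 3330, 4320 and 2404. Its 2 probes disagreed from 5 to 12 hpf, the brighter at -0.52 and the other at 1.27. From 12 to 24 hpf 7 of 7 genes were lower, against 57.8% of all genes.

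LSM1 to LSM8 form related rings. LSM2 to LSM8 bind the end of U6 small nuclear RNA, and the ring in which LSM1 takes the place of LSM8 acts in the decay of messenger RNA in the cytoplasm. At 5, 12 and 24 hpf lsm8, the subunit found in the U6 ring, had a vehicle signal of 793, 2720 and 1187, and lsm7 had 1150, 2491 and 2381. Values of lsm4 were 2559, 3272 and 4714, highest at 24 hpf, and those of lsm6 were 506, 703 and 538. All 4 were higher at 12 than at 5 hpf, with a median change of 0.80, and their median from 5 to 24 hpf was 0.73, although lsm6 differed by only 0.09. With the Sm ring genes, they account for 5 of the 6 members at least 2-fold higher at 12 than at 5 hpf. The other LSM genes work outside the spliceosome core. Gene lsm11, whose protein belongs to the U7 particle that trims histone messenger RNA, had 830, 699 and 496, and lsm12b had 1923, 2074 and 2789. The signal of lsm14aa, which encodes a protein of cytoplasmic RNA granules, was 705, 442 and 365, but its probes disagreed, with changes from 5 to 24 hpf between -3.50 and 0.50.

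The SNRP genes outside the Sm ring, for proteins that distinguish the U1 and U2 particles, had lower signals from 5 hpf on. The genes are snrpa and snrpc, for the U1 proteins A and C, and snrpb2, for the U2 protein B″. At 5, 12 and 24 hpf the vehicle signal of snrpb2 was 7406, 2526 and 1560. The values of snrpc were 2725, 1381 and 810, and those of snrpa were 5769, 2239 and 2076. All 3 were at least 2-fold lower at 24 than at 5 hpf, by 2.77-fold to 4.76-fold, and their median change from 5 to 12 hpf was -1.37. Outside the naming rule, snrnp70 changed by -0.74 from 5 to 24 hpf, short of 2-fold, and snrpa1 by -2.41.

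SF3A and SF3B are the protein assemblies of the U2 particle that hold it at the branch point. Of the SF3A genes, sf3a2 had 7305, 4333 and 2590 at 5, 12 and 24 hpf and sf3a3 had 3193, 1881 and 1256, so both were lower at each later stage. The signal of sf3a1 was 804, 788 and 684, a change from 5 to 24 hpf of -0.23 with probes between -0.53 and 0.05. The probe at 0.05 was the brightest, at 3622, 4294 and 3744, and another, at 71.7, 69.5 and 61.7, was near background. Among the SF3B genes, sf3b5, a small subunit, was at 13028, 2501 and 1628. This was 8-fold lower at 24 than at 5 hpf, with most of the difference before 12 hpf, and it comes from 1 probe. The values of sf3b4 were 2571, 1658 and 808. Both subunits of the large scaffold differed less: sf3b1, which clamps the branch helix, was at 610, 646 and 452, and sf3b3 at 2730, 3708 and 2022, each 1.35-fold lower at 24 than at 5 hpf. For sf3b1 the probes lay at -1.22, -0.05 and -0.03, and the one at -0.03 was the brightest. As means over their probes, all 8 SF3A and SF3B genes were lower at 24 than at 5 hpf, with medians of -1.35 and -0.64.

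U2AF recognises the end of the intron ahead of the U2 particle, with the large subunit on the pyrimidine tract and the small one on the splice site itself. At 5, 12 and 24 hpf the small subunit gene u2af1 had a vehicle signal of 3853, 3569 and 2829. The genes for the large subunit had 207, 142 and 94.8 (u2af2a) and 2246, 1812 and 1259 (u2af2b). As means over their probes, all 3 were lower at each later stage, and the median change from 5 to 24 hpf was -0.84. For u2af2b the probes lay between -1.94 and 0.06. The one at 0.06 was the brightest, at 4586, 4795 and 4794. The u2af2a probes were dim at 24 hpf. Their green signals, background included, were 106 and 63 units there, where the negative control limit was 55.7.

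The PRPF genes encode processing factors of the U1, U4, U5 and U6 particles, named after yeast mutants. The largest difference among all members was in prpf31, a U4 and U6 particle protein whose gene is mutated in a human retinal degeneration. Its vehicle signal was 3334, 975 and 278 at 5, 12 and 24 hpf, or 12-fold lower at 24 than at 5 hpf, and its 3 probes gave changes between -4.35 and -2.51. Another protein of that particle, prpf4, was at 8949, 3078 and 1912. At the other end, prpf8, the U5 protein at the catalytic centre, was at 261, 308 and 205. These values average probes of very unlike brightness, some of them near background. The brightest was at 1847, 3501 and 1865, a change from 5 to 24 hpf of 0.01, and the probes lay between -1.08 and 0.23. As means over their probes, all 10 genes were lower at 24 than at 5 hpf, 5 of them at least 2-fold, with a median of -0.88. A further 6 genes had changes from -1.22 (prpf38a) to -0.66 (prpf18).

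**Figure D2:**
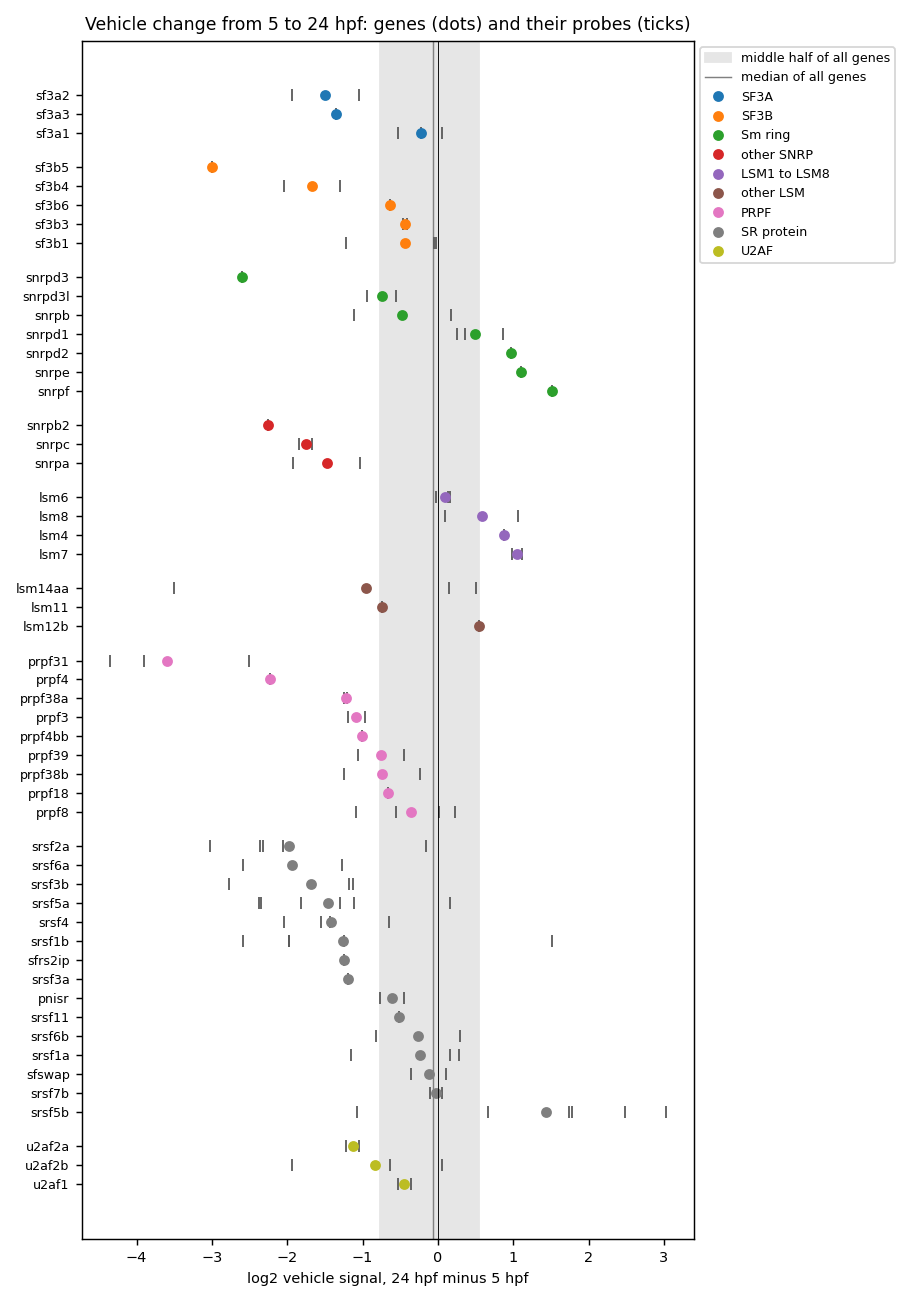
Log2 change of the vehicle signal from 5 to 24 hpf (x axis) for 52 of the 53 members, as dots coloured by subfamily, with ticks for the single measured probes and a grey band for the middle 50% of all genes (-0.77 to 0.55). The dots of prpf31, sf3b5 and snrpd3 lie at -3.59, -3.00 and -2.60, and the widest tick spreads are in lsm14aa, srsf1b and srsf5b.

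SR proteins bind enhancer sequences in exons through an RNA-binding domain and recruit the splicing machinery through a domain rich in arginine and serine. Of the 15 genes grouped here by name 14 were lower at 24 than at 5 hpf in vehicle, 8 of them at least 2-fold, and the median was -1.19. The group includes pnisr (-0.61), sfrs2ip (-1.24) and sfswap (-0.12), which have sfrs names on the array but no srsf symbol. At 5, 12 and 24 hpf srsf2a had 6404, 3212 and 1620, and srsf6a had 8559, 3897 and 2246. For srsf2a, 4 of 5 probes were at least 2-fold lower at 24 than at 5 hpf and the remaining probe was at -0.16. Smaller changes were found in sfswap, a regulator of alternative splicing, with 289, 319 and 266. The gene srsf7b, at 67.2, 70.3 and 65.8, was near background at all stages, and its change of -0.03 compares values of that kind. The exception in direction was srsf5b, with 209, 430 and 567, or 2.71-fold higher at 24 than at 5 hpf. Some of its probes were near background at 5 hpf.

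Genome duplication left the zebrafish with pairs of some of these genes, named a and b. The rule took both genes of 5 such pairs. Of these, 3 differed by at least 2-fold in their change from 5 to 24 hpf, for which the pooled probe SD was 0.95. Some other members have a partner under another name on the array, and these are not in that count. They are srsf2a (-1.98, srsf2b -0.40), srsf7b (-0.03, srsf7a -1.52), lsm12b (0.54, lsm12a -0.30) and lsm14aa (-0.95, lsm14ab -0.82). For srsf5a, with 5673, 3062 and 2056 at 5, 12 and 24 hpf, the change was -1.46, and for srsf5b it was 1.44. For srsf6a it was -1.93 and for srsf6b, with 641, 672 and 536, it was -0.26. For srsf1a, with 1687, 2600 and 1432, it was -0.24, and for srsf1b, with 640, 508 and 268, it was -1.26. The contrast of the srsf5 pair held under each scaling. That of the srsf1 pair, 1.02 as given, was 0.95 with 75th percentile scaling and 0.79 with Aquantile normalization, and that of the srsf6 pair, 1.67 as given, was 0.90 from the deposited green signal, so both fell short of 2-fold there. The probes spread widely too. Of 6 srsf5b probes 5 were higher at 24 than at 5 hpf, by 0.66 to 3.03, and the remaining probe was at -1.07. Those at 3.03, 1.78 and 0.66 were near background at 5 hpf. Their green signals, background included, were 59.8, 61 and 84.1 units, where the negative control limit was 51.4. The probes brightest at 5 hpf were at 2.48 and 1.74. Of 5 srsf1b probes 4 were lower, by -2.59 to -1.25, and the remaining probe, at 1.51, was 1109, 6405 and 3165 units. In srsf5a 1 probe of 6 was higher, by 0.16, and for srsf1a the probes lay between -1.15 and 0.28. The probes of srsf6a lay at -2.59 and -1.27, and those of srsf6b at -0.82 and 0.30. The pairs srsf3a and srsf3b (-1.19 and -1.69) and u2af2a and u2af2b (-1.13 and -0.84) differed by less than 2-fold. So did prpf38a and prpf38b (-1.22 and -0.74), which are separate genes in mammals as well. Probes were not matched to sequences here, so signal shared between near-identical copies cannot be told apart.

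**Figure D3:**
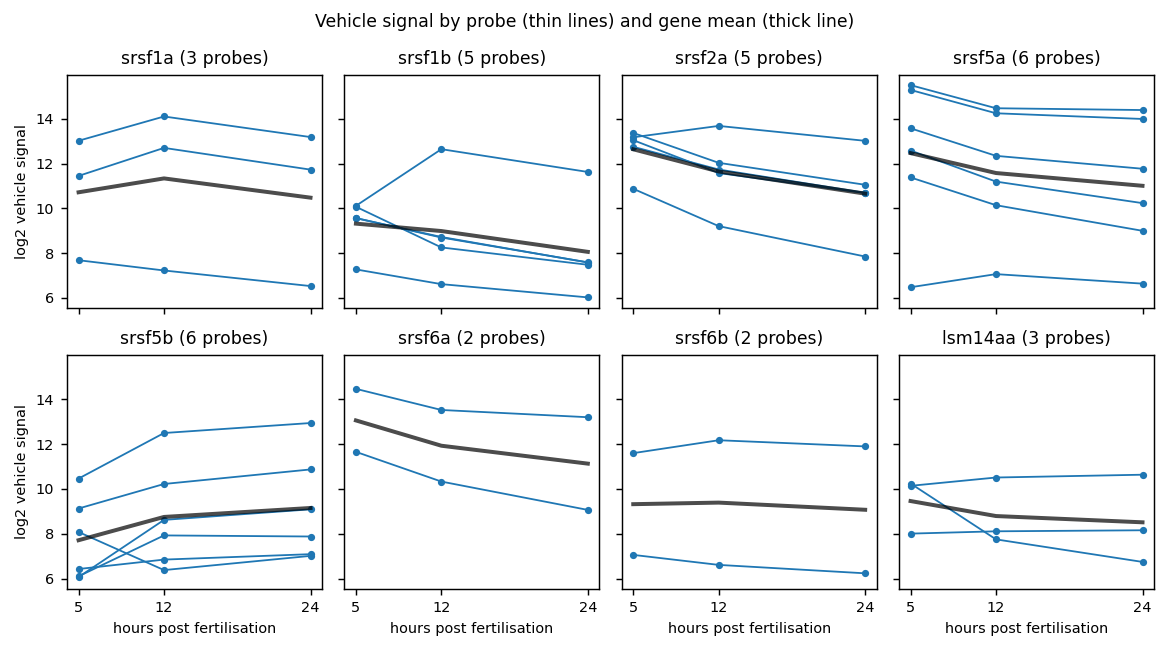
Log2 vehicle signal against hours post fertilisation for each probe (thin lines) of 7 SR protein genes and lsm14aa, with the gene mean as a thick line, for probes measured in green at all stages. In srsf1b, srsf2a and srsf5b 1 probe runs apart from the others, and in lsm14aa 1 of 3 probes is lower at 24 hpf.

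Other spliceosome genes, which the naming rule did not take, were read from lists of the same machinery. For their counts from 5 to 24 hpf, 53.8% of all genes were lower and 19.6% at least 2-fold. On the array 21 genes of the same families stood under another name, 7 of which also belong to the lists that follow. Of these 21, 20 were lower at 24 than at 5 hpf, 10 at least 2-fold, with a median of -0.99. The single higher gene was snrpg, the remaining Sm ring subunit, with changes of 1.71 from 5 to 12 hpf and -0.50 from 12 to 24 hpf, which places it beside snrpd2, snrpe and snrpf. The lowest were lsm14b, at -5.51, and snrpa1, the U2 protein A′, at -2.41. The 2 further LSM1 to LSM8 genes among them did not share the higher signal of the 4 members: lsm5 was at 0.02 from 5 to 12 hpf and -0.07 from 5 to 24 hpf, and lsm1 at -0.20 and -0.03.

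Of 21 further genes of the U1, U2 and U5 particles, 19 were lower at 24 than at 5 hpf and 7 at least 2-fold, with a median of -0.74, from rbm17 (-2.17) and cd2bp2 (-1.54) to sf1 (0.17) and phf5a (0.34). All 10 further genes of the U4, U6 and U5 tri-particle were lower, 5 at least 2-fold, with a median of -0.97. Their range ran from snu13a (-2.47) and smu1a (-1.87) to ppih and ik (-0.31 each). Of 28 genes of the Prp19 complex and the catalytic steps 25 were lower and 14 at least 2-fold, with a median of -1.02. Here cdc5l (-2.35) and dhx16 (-2.21) were lowest, and bcas2 (0.53) and cactin (2.66, from 1 of its 3 probes) highest. The minor spliceosome, which removes a rare class of introns, had 8 of 10 genes lower, 4 at least 2-fold, with a median of -0.98. Its extremes were snrnp35 and scnm1 (-1.78 each) against zrsr2 and zmat5 (0.16 each).

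Genes for assembling the particles on the SMN complex differed less, with a median of -0.47. Lower were 8 of 13 (61.5%) and at least 2-fold lower 2, against 53.8% and 19.6% of all genes. They ran from strap (-1.95) and snupn (-1.25) to smn1 (0.58), the spinal muscular atrophy gene, and wdr77 (0.76). A list of 11 genes held kinases and importers of SR proteins and the SR-like genes tra2a (-1.63) and tra2b (-0.69). Of these 11, 9 were lower and 4 at least 2-fold, with a median of -0.69. The lowest were srpk1b (-2.47) and tnpo3 (-1.66), and clk2a and dyrk1ab were higher by 1.22 each. Of 21 genes of the exon junction and export complexes, laid on the joined exons after splicing, 20 were lower and 10 at least 2-fold, with a median of -1.00. Their extremes were thoc3 (-3.13) and alyref (-3.04) against thoc2 (-0.11) and srrm1 (0.29). Most genes of the members and of each of these lists were therefore lower at 24 than at 5 hpf, where 53.8% of all genes were. Of these lists the SMN list lay closest to all genes. Over genes whose probes exceeded the array's median green signal at both stages, 56.4% were lower and the median was -0.19, against -0.74 for the 52 members so measured.

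After cortisol most spliceosome genes lay within 1.5-fold of vehicle, as did most genes on the array. A log2 ratio of red over green above 0 means a higher signal after cortisol, and the green signal is the same one used in the time course. At 5 hpf the median ratio of 53 members was -0.05, against 0.01 over all genes, with 34 members below 0 (64.2%, against 46.3% of all genes). At least 1.5-fold higher were 0 members, where 2.96% of all genes were, and 2 were at least 1.5-fold lower, where 0.933% of all genes were. At 12 hpf the median of 52 members was -0.12 against -0.03, with 32 below 0 (61.5%, against 55.7%). Again 0 were 1.5-fold higher (1.59% of all genes) and 4 were 1.5-fold lower (7.69% of members, 3.25% of all genes). At 24 hpf the median was -0.10 against -0.02, with 35 of 52 below 0 (67.3%, against 53.7%). There 1 member was 1.5-fold higher (1.28% of all genes) and 4 were lower (7.69% of members, 4.43% of all genes). Over the 52 members with a ratio at every stage 17 were below 0 at all of them and 3 above 0 at all of them. The same counts over all genes were not taken, so these counts cannot be set against the array.

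These ratios rest on the curve fitted to remove the dye difference. With each array only centred on its median the members' medians were 0.38, -2.81 and -1.95, and those of all genes 0.16, -1.69 and -1.21. The red signal was dim at the later stages, where its median over the members, above local background, was 6338 units at 5 hpf, 268 at 12 hpf and 158 at 24 hpf. The authors' deposited ratio, on the log2 scale, had the same sign as the ratio used here in 50 of 53 members at 5 hpf, 42 of 52 at 12 hpf and 35 of 52 at 24 hpf. In the deposited ratio 62.3%, 57.7% and 57.7% of members lay below 0 at 5, 12 and 24 hpf, against 48.9%, 59.8% and 49.5% of all genes. The share of members at least 1.5-fold lower, however, was below that of all genes at each stage, not above it. At 5 hpf 0 members were higher (9.32% of all genes) and 2 lower (3.77% of members, 7.13% of all genes). At 12 hpf 0 were higher (6.16% of all genes) and 2 lower (3.85% of members, 11.8% of all genes). At 24 hpf 2 were higher and 2 lower, each 3.85% of members, where 10.2% and 9.26% of all genes were.

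**Figure D4:**
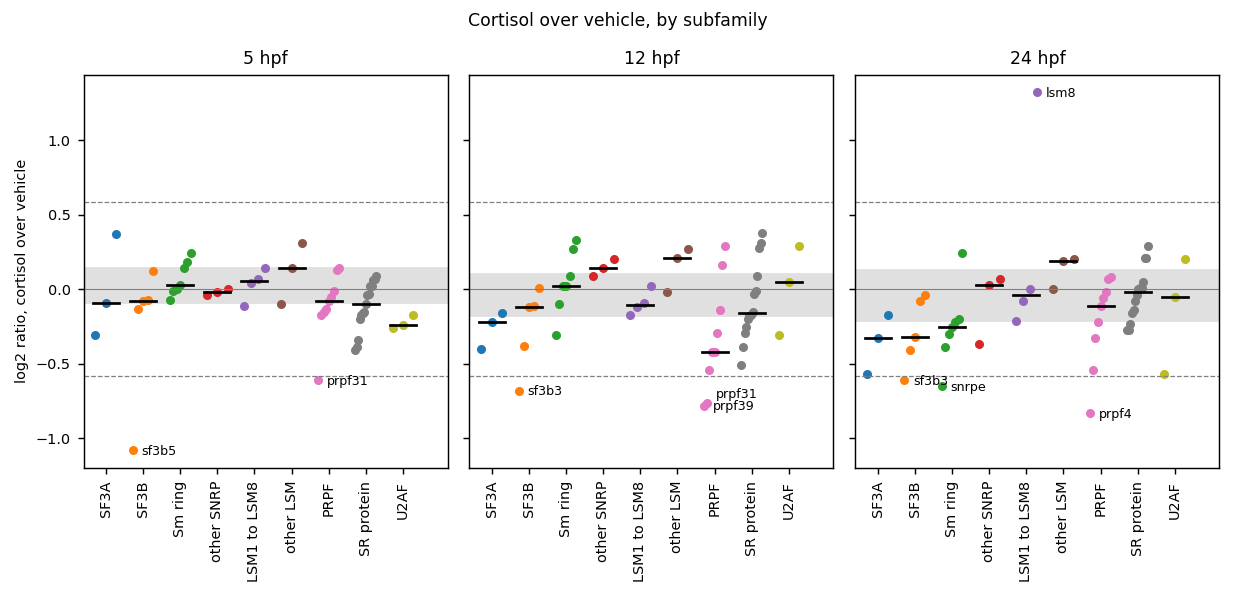
Log2 ratio of cortisol over vehicle (y axis) for every member but 1, by subfamily, at 5, 12 and 24 hpf, with black bars for the medians of the genes drawn, a grey band for the middle 50% of all genes and dashed lines at 1.5-fold. Few dots lie outside the dashed lines, and at 24 hpf lsm8 stands alone above them.

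At 5 hpf the gene furthest from 0 was sf3b5. Its green signal above background was 12425 units and its red signal 12092, which after dye correction gave a ratio of -1.08, or 2.11-fold lower after cortisol, by 1 probe. In the authors' deposited ratio it was -1.30. At 12 and 24 hpf the ratio of sf3b5 was -0.11 and -0.08, within the spread between probes of a member. The other member past 1.5-fold was prpf31, at -0.61 in both ratios, with green and red signals of 4484 and 6672 units. Its 3 probes lay between -0.82 and -0.26, and the brightest, at -0.26, was short of 1.5-fold. With median centring sf3b5 was at -0.50 and prpf31 at -0.10, both short of it. At 12 hpf prpf31 was again lower, at -0.76, with its 3 probes between -0.87 and -0.67 and a deposited value of -1.27, but at -0.45, short of 1.5-fold, when no spots were removed for high local background. There its red signal was 88 units above background, and at 24 hpf, with 47.7 units, the ratio was -0.02. Most of that signal came from 1 probe. With background included, the dimmer probes had red signals of 147 and 142 units at 12 hpf, where the negative control limit was 134.7. At 24 hpf each was at 138 units, where the limit was 136.9. In the time course the vehicle signals of sf3b5 and prpf31 differed between 5 and 12 hpf by -2.38 and -1.77, and both comparisons use the same green signal at 5 hpf.

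Also past 1.5-fold at 12 hpf was prpf39, which encodes a factor of the U1 particle. Its green signal was 7206 units above background and its red signal 332, and its ratio was -0.78 (deposited -0.65, probes -0.88 and -0.68), or -0.54 when no spots were removed. The ratio of sf3b3 was -0.68 with probes at -1.17 and -0.20, and its deposited value was -0.06. It passed 1.5-fold by 1 of its probes and was near 0 in the deposited ratio.

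At 24 hpf the ratios of prpf4 (-0.83, deposited -0.29), snrpe (-0.65, deposited -0.33) and sf3b3 (-0.61, deposited -0.11) were smaller in the deposited values. Those of prpf4 and snrpe came from 1 probe each, and the probes of sf3b3 lay at -0.93 and -0.29. In the same order the green signals were 1158, 3327 and 1643 units above background and the red signals 88.5, 319 and 186. Just short of 1.5-fold were sf3a1 and u2af1, each at -0.57. The highest ratio was that of lsm8, at 1.32 and 1.62 in the deposited values, but it came from 1 of its 2 probes. That probe was at 2.71 (deposited 3.13) and the other at -0.06 (deposited 0.11). At 5 and 12 hpf the ratio of lsm8 was -0.11 and -0.17.

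By subfamily, the ratios of SF3A had medians of -0.09, -0.22 and -0.33 at 5, 12 and 24 hpf, and those of SF3B -0.08, -0.12 and -0.32. All 8 of these genes were below 0 at 24 hpf, as were 53.7% of all genes. In the authors' deposited ratio, however, SF3B had a median of 0.02 at 24 hpf with 3 of 5 genes above 0, and SF3A a median of 0.03 at 12 hpf. PRPF genes had -0.10, -0.42 and -0.17, with 8 of 10 below 0 at each stage. The Sm ring was at 0.03, 0.02 and -0.25, with 6 of 7 below 0 at 24 hpf, or 4 of 7 in the deposited ratio. The SR protein genes were at -0.10, -0.16 and -0.02, and at 24 hpf 7 were above and 7 below 0. U2AF genes were at -0.24, 0.05 and -0.05, LSM1 to LSM8 at 0.05, -0.11 and -0.04, the other LSM genes at 0.14, 0.21 and 0.19, and the other SNRP genes at -0.02, 0.14 and 0.03. No subfamily median reached 1.5-fold at any stage, and each lay at most 0.42 from 0.

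**Figure D5:**
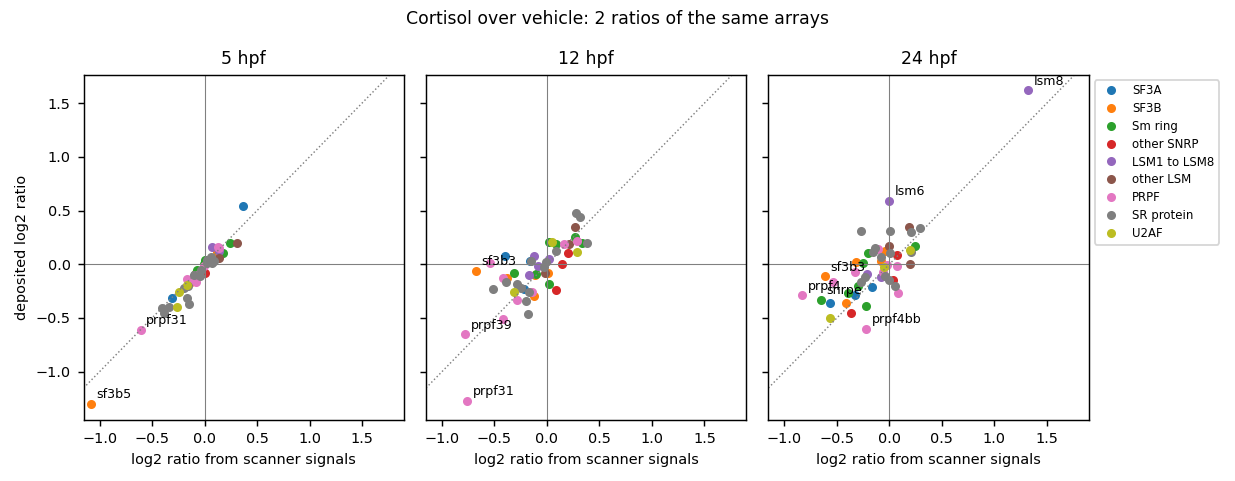
Log2 ratio of cortisol over vehicle from the scanner signals (x axis) against the authors' deposited ratio (y axis) for every member but 1, at 5, 12 and 24 hpf, coloured by subfamily, with a dotted line of equality. Points follow the line at 5 hpf and scatter around it at 12 and 24 hpf, where the red signal was dim.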

How the data were processed

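The members and gene lists were chosen with earlier results of these data known. The scanner files, deposited by the authors from Agilent Feature Extraction (version not given in the sources used here, per the submitters' processing notes), hold median pixel intensity and background intensity per spot and channel. A deposited log10 ratio and processed intensities, per the file headers, served as alternatives, rescaled to log2, with exact 0 taken as missing. Decimals of single-array medians occur in 27.4%, 39.9% and 99.5% of green signals at 5, 12 and 24 hpf, and those of a mean over 3 arrays in 55.5% at 5 hpf and 99.3% at 12 hpf, so the first 2 stages are read as means over arrays.

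Spots whose local background was above 2 times the median of their array (12, 9 and 0) were left out. Background was corrected with limma's normexp (offset 50) and ratios by loess with 1417 control spots at weight 0. Green log2 signals were quantile-normalized over the stages. A probe counted as measured above a limit set by 153 negative control spots (their mean plus 2 SD). Spots of a probe, then measured probes of a gene, were averaged, for a change over the probes measured at both of its stages and for a level over those measured at all 3. Current symbols came from RefSeq's genes of GRCz12tu, without coordinates. Steps were tested on simulated data (R 4.3.3, limma 3.58.1, Python 3.11.15, pandas 2.3.3, numpy 2.4.6). The simulated arrays had a constant red to green ratio per stage, with changes planted among bright spots only. Dim spots and other dye differences were therefore not covered.

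The 1.5-fold (cortisol) and 2-fold (vehicle) limits are sizes, not tests. Named with full values were the 2 lowest and 2 highest members by change from 5 to 24 hpf in subfamilies of 5 or more. All members of smaller subfamilies were named too, and members past 1.5-fold with the same sign in the deposited ratio. So were gene pairs taken by the rule and 2-fold apart, and the 2 lowest and 2 highest of each list. No gene or protein sequence was used. Values of 1 member are not reported here, although it counts in every total, median and share.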

Additional observations from a re-analysis of the deposited data

How the results depend on the processing

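The median vehicle change of the members was below 0 under every alternative. It was -0.33 to -0.18 from 5 to 12 hpf and -0.71 to -0.45 from 12 to 24 hpf. From 5 to 24 hpf it was -0.92 to -0.64. With 75th percentile scaling the members were close to all genes from 5 to 12 hpf. Their median was then -0.18 against -0.12, and 56.6% of them were below 0, against 58.3% of all genes. The count at least 2-fold lower from 12 to 24 hpf, 4 as reported, was 10 with 75th percentile scaling and 9 from the deposited green signal. It was 8 with genes taken by current symbol, which is a larger set. The shares of all genes past 2-fold were not taken under these settings, so these counts cannot be set against the array. With 75th percentile scaling 2 members were at least 2-fold higher from 5 to 24 hpf in place of 4. Also with it, 4 members with changes up to 0.28 turned direction from 5 to 12 hpf, namely sf3b6, srsf11, srsf7b and u2af1.

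Cortisol counts moved more. Median centring gave medians of 0.38, -2.81 and -1.95 at 5, 12 and 24 hpf. It gave 12 members higher and 0 lower at 5 hpf, 52 lower at 12 hpf, and 0 higher and 51 lower at 24 hpf. With it 31.4%, 92.9% and 92.6% of all genes were below 0 at 5, 12 and 24 hpf. By the brightest probe 1 member was higher and 1 lower at 5 hpf, 2 higher at 12 hpf, and 0 higher and 8 lower at 24 hpf. Genes by current symbol, a larger set with 72 genes at 5 hpf, gave 1 higher there. Without removal of high-background spots 8 were higher and 2 lower at 12 hpf, and prpf31 (-0.45) and prpf39 (-0.54) fell short of 1.5-fold. In that setting 66.5% of all genes and 55.8% of members were below 0 at 12 hpf. The deposited ratio gave 2 lower at 12 hpf (3.85%, against 11.8% of all genes). At 24 hpf it gave 2 higher and 2 lower (3.85% each, against 10.2% and 9.26%), and offset 20 gave 7 lower. Apart from the deposited ratio, the shares of all genes past 1.5-fold were not taken under these settings. Those counts therefore cannot be set against the array. The ratio of lsm8 at 24 hpf turned to -0.69 with median centring and -0.06 by its brightest probe. The cause of these shifts was not tested. Dim red signals limit the later ratios: 12 of 52 members at 12 hpf and 18 of 52 at 24 hpf had under 100 units above background. No paired analysis was possible because each stage has 1 set of values and no test was made.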

Other observations

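Splicing regulators of particular tissues, which do not belong to the core machinery, had another course in vehicle-treated embryos. The array holds 22 such genes. Of the 18 measured at 5 and 24 hpf, 9 were higher and 9 lower, with a median of 0.06. Genes without a measured signal at 5 hpf are left out of this count. Among the rest, rbfox1l and elavl3 changed by 1.83 and 0.57 from 12 to 24 hpf, and celf4 and srrm4 were not measured over that interval. A 2-fold limit was passed upward by 5 and downward by 2, where 17.0% and 19.6% of all genes passed it. The highest were celf2, at 3.79, and rbfox1, a regulator of neuronal and muscle exons, at 3.09, with changes from 12 to 24 hpf of 2.77 and 2.74. The lowest were rbm24b (-1.50) and khdrbs1a (-1.49). Genes of hnRNP proteins, which coat newly made transcripts, were mostly lower: 20 of 23 were lower at 24 than at 5 hpf, 10 at least 2-fold, with a median of -0.98. Here hnrnpabb (-2.27) and hnrnpk (-2.10) were lowest, and hnrnpa0a (0.66) and hnrnpul1 (0.89) highest.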
